A study of Rattus norvegicus with 8 samples.

Results

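The cAMP pathway carries the signal of the thyrotropin (TSH) receptor into the thyroid cell, and 38 of its genes were followed here, chosen by symbol: G protein alpha subunits, adenylyl cyclases, phosphodiesterases, protein kinase A (PKA) subunits, the exchange factor EPAC with its target Rap1, proteins that desensitise receptors, and the transcription factors and coactivators at the end of the pathway. The array had a probe set named for 37 of the 38, and 31 were bright enough to be tested, out of 10045 genes tested and 14218 with a named probe set. A gene was represented by its brightest probe set. The 38 were listed with earlier results of these data known, so shares of members set against all genes are description only.

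The cells were FRTL-5, a line derived from rat thyroid follicular cells, of the sub-clone SB5. They stably expressed a human TSH receptor, either with L629F, a substitution known to activate the receptor without hormone, or wild type (WT). Each line was given 1 mM sodium iodide or, to match the salt, 1 mM sodium chloride, for a time the labels do not state, and bovine TSH at 5 mU/ml was in the culture medium throughout. The 4 groups were therefore L629F with iodide, L629F with chloride, WT with iodide and WT with chloride, each on 2 arrays. There was 1 line for each receptor, so the receptor and other differences between the lines cannot be told apart, and WT cells were stimulated through the receptor by the TSH in the medium. The labels do not say whether the 2 arrays of a group came from separate cultures, so the p-values measure the spread between these arrays only, which may be technical. The rat Tshr probe set gives no check of the introduced human receptor.

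The TSH receptor activates the stimulatory G protein, which turns on adenylyl cyclase, and the resulting cAMP releases the catalytic subunits of PKA and opens EPAC. PKA phosphorylates CREB and related factors, which bind cAMP response elements in promoters. Phosphodiesterases break cAMP down, inhibitory G proteins hold the cyclases back, and receptor kinases and arrestins uncouple the active receptor. Several of these brakes are themselves known to be induced by cAMP, which closes a feedback loop, and the comparison of L629F with WT cells asks whether the constitutively active receptor goes with a different level of the pathway's own transcripts.

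Values are MAS5 signals on a linear scale, set only against other arrays for the same probe set. Differences are on the log2(signal + 35.3) scale, which understates those of dim genes, with p-values from limma adjusted (Benjamini-Hochberg) over all 10045 genes and a threshold of 0.05. The arrays shared a common mean level, but the 25th percentile of signals was 41.9 ± 1.11 on L629F arrays and 30.1 ± 1.01 on WT arrays (n = 4 each, SD; two-sided exact permutation p = 0.0286, the smallest that 4 against 4 arrays allow). The GAPDH 3′ to 5′ ratio, which is higher in degraded RNA, was 2.12 ± 0.407 in L629F and 1.82 ± 0.881 in WT cells (SD, n = 4 each; exact permutation p = 0.543). The beta-actin ratio was 6.56 ± 0.925 in L629F and 5.02 ± 2.98 in WT cells (SD, n = 4 each, exact permutation p = 0.371). Both ratios were highest on WT iodide replicate 2, at 3.13 and 9.15. Thyroid markers were present on every array: thyroglobulin (Tg) ranged from 10748 to 16582, Pax8 from 5506 to 8086 and Nkx2-1 from 7031 to 9722, and 10 of 14 thyroid markers passed the filter on dim probe sets, with Iyd and Slc26a4 below it. Of the 10, Duox2 (0.50 log2, limma adjusted p = 0.0257) and Cdh16 (0.84, 0.0478) were higher in L629F than in WT cells, and with iodide Hhex (0.38, 0.0438) was higher and Slc5a5 (−1.02, 0.0268) lower than with chloride, all from averages and not refitted with arrays left out. The summed thyroid marker signal was 54687 to 56579 in L629F cells with iodide and 52006 to 56619 with chloride, against 45729.6 to 57040.1 in WT cells with iodide and 49424 to 54513 with chloride. Of other cell types, 3 of 10 leucocyte, 2 of 8 fibroblast, 1 of 6 endothelial and 2 of 6 C cell markers passed the filter, and none was at 0. Those that passed had mean signals of 117 for Cd3e, 156 for Cd14, 82.0 for Lyz2, 137 for Col1a1 and 114 for Pdgfra. Vwf had 154, Chgb 281 and Syp 115. Some defining ones were dim (mean signal 20.9 for Ptprc, 6.03 for Dcn, 46.6 for Pecam1 and 4.82 for Chga). Each marker sum takes in every listed gene with a probe set, also those below the filter. The summed leucocyte signal was nevertheless higher on every L629F array, at 556 to 721 with iodide and 590.1 to 698 with chloride, against 492 to 507 in WT cells with iodide and 457 to 539 with chloride. The C cell sum moved the same way, at 517 to 549.7 and 544 to 578 in L629F cells, against 394 to 485 and 299 to 381 in WT cells, in the same order of salts. The fibroblast sum, at 387 to 590.4 and 423 to 446 in L629F cells against 354 to 431 and 341 to 393 in WT cells, overlapped between lines, as did the endothelial sum, at 198 to 214 and 337 to 418 against 231 to 466 and 328 to 378. The part of the raised low signals and of these marker sums in the differences between lines was not tested.

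Averaged over both salts, 2 of the 31 members differed between L629F and WT cells. Gnai2 was higher and Arrb2 was lower, which is 6.45% of the members against 3.17% of all genes tested. At an unadjusted p under 0.05 there were 8 members (25.8%, against 19.8% of all genes). By direction at the adjusted threshold, 1 of 31 was higher against 2.07% of all genes and 1 of 31 lower against 1.1%. Nothing about the members as a group is read from counts this small. The median difference of the 31 members was 0.07 log2, against −0.00 for all genes, and −0.10 against −0.17 when each array was shifted to a common all-probe-set median (called all-probe centring here). Of the 31, 29 had a 95% interval that stayed within a 2-fold change in either direction. The phosphodiesterases and PKA subunits, the classical points of negative feedback on cAMP, had no member past the threshold. Because RNA was taken from whole cultures, fewer expressing cells and less RNA per cell cannot be told apart in any of these values.

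**Figure D1:**
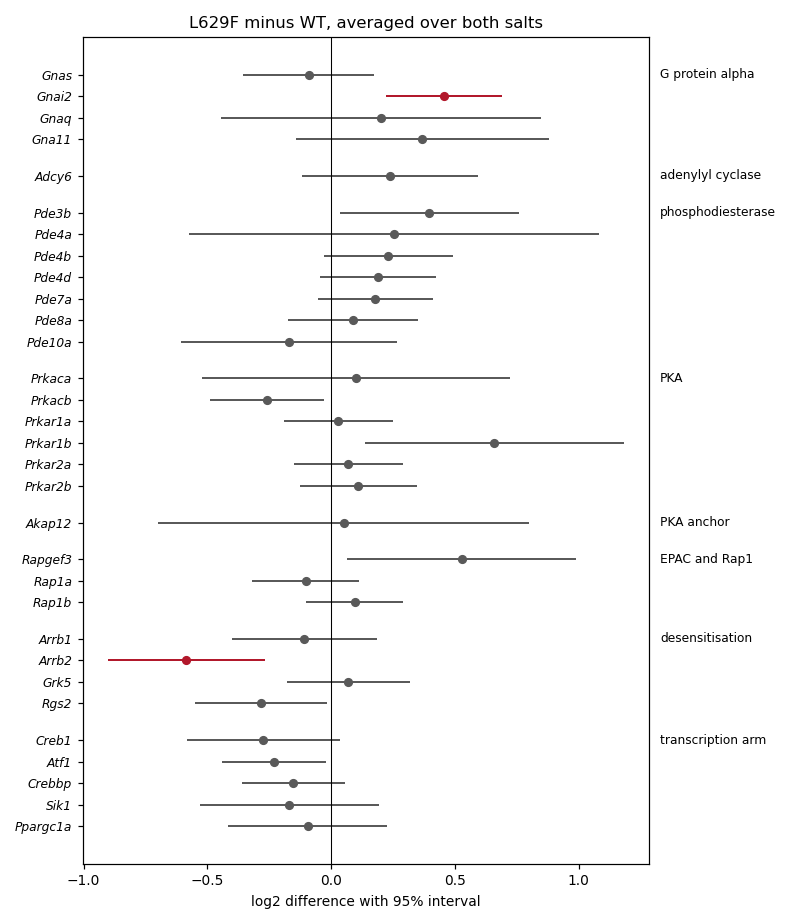
Log2 difference of L629F minus WT cells averaged over both salts (horizontal axis) for the 31 tested members, grouped by role, with 95% intervals from limma. Gnai2 (0.46) and Arrb2 (−0.59), in red, passed the threshold. All 5 members of the transcription arm, each by its brightest probe set, lie left of 0, and none of them passed.

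Gnai2 (probe set 1367844_at) encodes an inhibitory alpha subunit that lowers adenylyl cyclase activity. Its signal was 4192 and 3202 in L629F cells with iodide and 3291 and 3027 with chloride, against 2403 and 2251 in WT cells with iodide and 2721 and 2525 with chloride. Every L629F array lay above every WT array. The means were 3428 ± 521 in L629F and 2475 ± 198 in WT cells (SD, n = 4 each), a difference of 0.46 log2 (SE 0.11, 95% interval 0.23 to 0.69, 1.37-fold; limma adjusted p = 0.0379). With iodide the difference was 0.65 (adjusted p = 0.0878) and without it 0.26 (adjusted p = 0.473), neither past the threshold, and the 2 did not differ past it either (interaction 0.38, adjusted p = 0.993). The call depended on single arrays. When each was left out in turn the difference stayed between 0.36 and 0.55, but passed in 2 of 8 fits, without WT iodide replicate 1 (adjusted p = 0.0486) or L629F iodide replicate 2 (0.0272). It did not pass under all-probe centring (0.29, adjusted p = 0.0843).

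The other alpha subunits did not pass. Gnas, whose product is the stimulatory subunit that couples the TSH receptor to adenylyl cyclase, had signals of 14163 to 19579.6 in L629F and 14428 to 23780.5 in WT cells, and its difference was −0.09 log2 with an interval from −0.35 to 0.17 (adjusted p = 0.717). Gnaq and Gna11, whose products activate phospholipase C, differed by 0.20 (adjusted p = 0.751) and 0.37 (0.411). Gnaq was among the dimmest members tested, at 51.7 to 115 in L629F and 17.0 to 132 in WT cells. Gnai1 was too dim to be tested, with signals from 3.26 to 39.99 over the 8 arrays, and Gnai3 had no probe set named for it alone.

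Among 4 adenylyl cyclases, which make cAMP from ATP, only Adcy6 was bright enough. It measured 419.7 and 313 in L629F cells with iodide and 319.7 and 283 with chloride, against 302 and 311 in WT cells with iodide and 221 and 274 with chloride. The lines overlapped, and the difference was 0.24 log2 (interval −0.11 to 0.59, adjusted p = 0.451). Adcy3 (7.01 to 76.4), Adcy5 (1.74 to 106 over 2 probe sets) and Adcy9 (2.98 to 56.6) stayed below the filter.

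The phosphodiesterases break down cAMP, and 7 of 8 were tested, none of which passed the threshold. Of these 7, 6 had a positive difference, with a median of 0.19 log2, and 5 of them under all-probe centring, where 6 lay above the median of all genes. Pde3b, an insulin-regulated enzyme that cGMP inhibits, was the nearest to the threshold. It measured 364 and 342 in L629F cells with iodide and 389 and 371 with chloride, against 194 and 294 in WT cells with iodide and 332 and 278 with chloride. All L629F arrays lay above all WT arrays and the difference was 0.40 log2 (SE 0.17, interval 0.04 to 0.75, adjusted p = 0.208).

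Pde4b and Pde4d belong to the cAMP-specific family that is known to be induced or activated by cAMP in many cells. Pde4b measured 2109 and 1994 in L629F cells with iodide and 2571 and 2165 with chloride, against 1945 and 1434 in WT cells with iodide and 2236 and 1954 with chloride. Pde4d measured 2815 and 2241 in L629F cells with iodide and 2149.8 and 1947 with chloride, against 2251 and 2268 in WT cells with iodide and 1823 and 1668 with chloride. For both genes the lines overlapped, and the differences were 0.23 (interval −0.03 to 0.49, adjusted p = 0.309) and 0.19 (−0.04 to 0.42, adjusted p = 0.353). Of the other kept probe sets, Pde4b 1369044_a_at gave −0.27 (adjusted p = 0.535 among all probe sets), and Pde4d 1370569_at gave 0.06 (0.872) and the dimmer 1368750_a_at −0.64 (0.115). Pde7a, a further cAMP-specific enzyme, measured 2900.4 and 2763 in L629F cells with iodide and 3264 and 3186 with chloride, against 2708 and 2211 in WT cells with iodide and 3203 and 2636 with chloride. Its lines overlapped, at 0.18 log2 (adjusted p = 0.376).

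The remaining phosphodiesterases were Pde8a, a high-affinity cAMP enzyme, with 0.09 (adjusted p = 0.727), Pde10a, which acts on both cyclic nucleotides, with −0.17 (0.676), and Pde4a with 0.25 (0.755). The Pde4a value had a wide interval, from −0.57 to 1.08, and its signal was 6.59 on WT iodide replicate 1 but 49.8 to 126 on the other arrays. Pde3a was too dim to be tested (5.25 to 75.3).

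All 6 PKA subunits were tested and none passed. Of the 6, 5 had a positive difference, but 1 was positive under all-probe centring, and 5 lay above the median of all genes under either scaling. Prkar1b encodes a regulatory subunit, which keeps the kinase inactive until cAMP binds. It measured 129 and 138 in L629F cells with iodide and 203 and 184 with chloride, against 119.9 and 55.9 in WT cells with iodide and 100.2 and 90.4 with chloride. Every L629F array lay above every WT array, and the difference of 0.66 log2 (SE 0.24, interval 0.14 to 1.18) was the largest among the members, with an adjusted p of 0.152. This is 1.58-fold with the pseudocount added, which understates the change of so dim a gene.

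Prkacb encodes a catalytic subunit. It measured 1317 and 1398 in L629F cells with iodide and 1508 and 1519.85 with chloride, against 1557 and 1758 in WT cells with iodide and 1919.6 and 1681 with chloride. Here every L629F array lay below every WT array, with a difference of −0.26 log2 (SE 0.11, interval −0.49 to −0.03, adjusted p = 0.191). Its other kept probe set, 1384772_at, differed by 0.09 on average (adjusted p = 0.791 among all probe sets) and by 0.46 with iodide, and the mean of both probe sets by −0.09 (adjusted p = 0.697). Prkaca, the other catalytic subunit, had signals of 577 to 1083 in L629F and 373 to 1236 in WT cells and a difference of 0.10 (interval −0.52 to 0.72). The abundant regulatory transcripts Prkar1a, Prkar2a and Prkar2b had differences of 0.03, 0.07 and 0.11 with intervals between −0.19 and 0.34. These are from the brightest probe sets, and the other kept probe sets of Prkar1a disagreed in sign. Prkar1a 1386905_at gave −0.33 (limma adjusted p = 0.141 among all probe sets) and 1373951_at gave 0.16 (0.437). Akap12, an anchoring protein for PKA, differed by 0.05 with an interval from −0.69 to 0.79, and its signal lay near the filter.

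**Figure D2:**
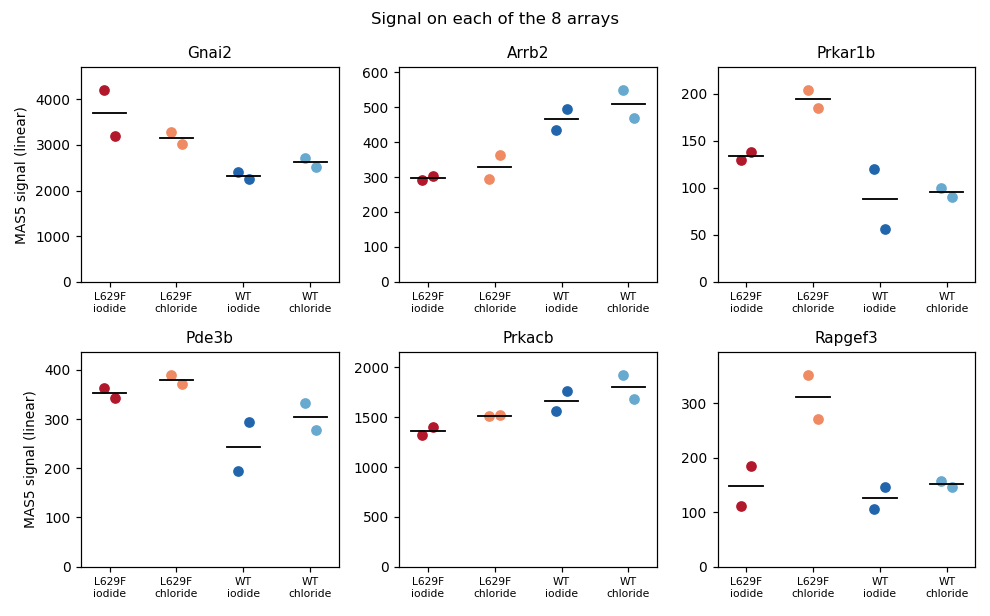
MAS5 signal (vertical axis, linear, from 0) on each of the 8 arrays for 6 members, with the mean of the 2 arrays of a group as a bar. The L629F arrays all lie above the WT arrays for Gnai2, Prkar1b and Pde3b and all below them for Arrb2 and Prkacb, while Rapgef3 is highest on the 2 L629F chloride arrays.

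Rapgef3 encodes EPAC1, the exchange factor that cAMP opens to load the small GTPase Rap1. It measured 112 and 186 in L629F cells with iodide and 352 and 271 with chloride, against 107 and 146 in WT cells with iodide and 157 and 146 with chloride. Both L629F chloride arrays stood above all the others, and the L629F iodide arrays overlapped WT. The difference averaged 0.53 log2 (SE 0.21, adjusted p = 0.194), with 0.88 without iodide (adjusted p = 0.233) and 0.17 with iodide (adjusted p = 0.866), and the interaction of −0.71 did not pass (adjusted p = 0.993). Rapgef4, which encodes EPAC2, was not above the filter on any array (0.872 to 9.97). The EPAC targets Rap1a (−0.10, adjusted p = 0.595) and Rap1b (0.09, adjusted p = 0.588) did not pass.

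Of 4 desensitising proteins, Arrb2 passed. Arrb2 (1370265_at) encodes beta-arrestin 2, which binds phosphorylated receptors and uncouples them from G proteins. It measured 293 and 302 in L629F cells with iodide and 294 and 364 with chloride, against 434 and 496 in WT cells with iodide and 548 and 470.2 with chloride. Every L629F array lay below every WT array, at 313 ± 34.4 in L629F and 487 ± 47.9 in WT cells (SD, n = 4 each). The difference was −0.59 log2 (SE 0.15, interval −0.90 to −0.27, 0.667-fold; limma adjusted p = 0.0466), and it was alike under both salts, at −0.59 with iodide (adjusted p = 0.276) and −0.58 without (0.244). Its call was lost whichever array was left out (adjusted p 0.0554 to 0.178 in 8 fits), while the difference stayed between −0.66 and −0.51.

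The other arrestin, Arrb1, differed by −0.11 (interval −0.40 to 0.18, adjusted p = 0.694). Grk5, a receptor kinase that prepares receptors for arrestin, differed by 0.07 (interval −0.18 to 0.31, adjusted p = 0.775). Rgs2, which speeds the shut-off of G proteins and is known as a cAMP-inducible gene, measured 1159.7 and 991 in L629F cells with iodide and 1081 and 868 with chloride, against 1434 and 1293 in WT cells with iodide and 1235 and 1057 with chloride. The lines overlapped, and the difference was −0.28 log2 (SE 0.12, adjusted p = 0.220). Over all roles, 5 of the 31 members had no overlap between the 4 L629F and the 4 WT arrays, which is 16.1% against 10.4% of all genes. Gnai2, Prkar1b and Pde3b were above WT on all arrays (9.68%, against 5.7% of all genes), and Prkacb and Arrb2 below (6.45%, against 4.66%).

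The transcription arm held 5 tested members, and none passed. All 5 had a negative difference in their brightest probe set, with a median of −0.17 log2, but dimmer kept probe sets of 3 of them were positive: 0.41 for Sik1 1368597_at, 0.14 for Creb1 1369708_a_at and 0.14 for Ppargc1a 1370089_at, none past the threshold (adjusted p 0.475, 0.871 and 0.707 among all probe sets). Creb1 and Atf1 encode factors that PKA phosphorylates. Creb1 measured 727 and 500.2 in L629F cells with iodide and 583 and 614 with chloride, against 679.8 and 781 in WT cells with iodide and 796 and 686 with chloride. Atf1 measured 4092 and 3657 in L629F cells with iodide and 3996 and 3437 with chloride, against 5223 and 4741 in WT cells with iodide and 3993 and 3967 with chloride. Both overlapped between lines, at −0.27 (adjusted p = 0.307) and −0.23 (adjusted p = 0.1997). Under all-probe centring, Creb1 (−0.44, adjusted p = 0.0495), Atf1 (−0.40, 0.0208), Crebbp (−0.32, 0.0429), Prkacb (−0.43, 0.0264) and Rgs2 (−0.45, 0.0334) passed together with Arrb2 (−0.76, 0.0111), in a comparison where 146 genes were then higher and 1231 lower, against 208 and 110 without centring. Sik1, a kinase that restrains CREB coactivators, differed by −0.17 (adjusted p = 0.607), and Ppargc1a, a coactivator induced by cAMP in other tissues, by −0.09 (0.764).

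Crebbp encodes the histone acetyltransferase that CREB recruits, and it had 5 kept probe sets. The brightest, 1382264_at, measured 2497 and 2448 in L629F cells with iodide and 2043 and 1940.5 with chloride, against 2414 and 2568 in WT cells with iodide and 2412 and 2492 with chloride, a difference of −0.15 (adjusted p = 0.394). All 5 probe sets had a negative difference, from −1.03 to −0.15. With every one of 18625 kept probe sets tested as a feature, an alternative chosen after the data had been seen, 1 of 52 probe sets of members passed, against 1.76% of all. This was Crebbp 1380027_at, singled out after its values were seen, at 179.9 and 274 in L629F cells with iodide and 362 and 414 with chloride, against 431 and 529 in WT cells with iodide and 529.9 and 549 with chloride. All L629F arrays lay below all WT arrays (−0.72 log2, SE 0.16, adjusted p = 0.0450), and leaving out each array in turn kept the call in 1 of 8 fits (adjusted p 0.0414 to 0.163). In that same fit Gnai2 and Arrb2 had adjusted p of 0.0557 and 0.0656. Over all 14 members with several kept probe sets, 5 had the same sign in every probe set for the receptor (Gnas, Prkar2a, Crebbp, Pde8a and Rgs2).

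**Figure D3:**
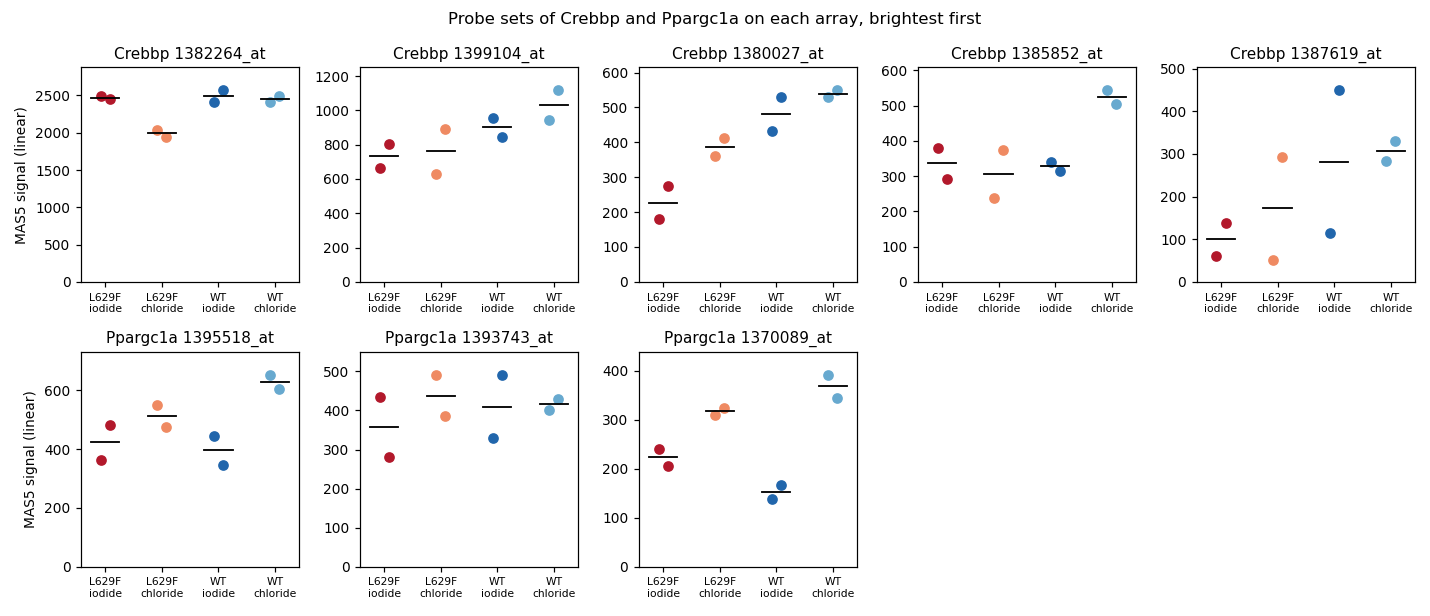
MAS5 signal (vertical axis, linear, from 0) on each array for the 5 kept probe sets of Crebbp and the 3 of Ppargc1a, with the mean of the 2 arrays of a group as a bar. Crebbp 1380027_at is lower on all 4 L629F arrays than on any WT array, and Ppargc1a 1370089_at is lower with iodide than with chloride in both lines.

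CREB and ATF1 bind the palindrome TGACGTCA, and a single core TGACG is a weaker element, so the 300-base windows around the starts of members' transcripts (250 bases before, 50 after) were searched on both strands. RefSeq windows of the build GRCr8 covered 28 of the 38 members with 41 windows, and Gnai2, Gnai3, Adcy3, Adcy6, Prkar2a, Atf1, Pde3b, Pde7a, Arrb1 and Arrb2 were missing. TGACGTCA stood in 2 of 41 member windows (4.88%) and in 612 of all 33469 windows (1.83%). TGACG stood in 16 of 41 windows (39%), from 14 genes, and in 7097 of all windows (21.2%). TGACGTCA itself holds TGACG on each strand, so the counts overlap. The 250 bases before the start are shown for the members with the full palindrome and for Rgs2, a known cAMP-inducible gene, from chr14:63634058-63634307 on the plus strand for Ppargc1a, chr7:55342218-55342467 on the minus strand for Rap1b and chr13:58352667-58352916 on the minus strand for Rgs2. They run 5′ to 3′ toward the start, with matches to either motif on either strand in capitals (CGTCA is TGACG read on the other strand).
Ppargc1a: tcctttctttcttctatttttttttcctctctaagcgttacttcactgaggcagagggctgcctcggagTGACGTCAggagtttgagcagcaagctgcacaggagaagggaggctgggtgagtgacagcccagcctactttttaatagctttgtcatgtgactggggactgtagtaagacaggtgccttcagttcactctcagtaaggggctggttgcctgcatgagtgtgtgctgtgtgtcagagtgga
Rap1b: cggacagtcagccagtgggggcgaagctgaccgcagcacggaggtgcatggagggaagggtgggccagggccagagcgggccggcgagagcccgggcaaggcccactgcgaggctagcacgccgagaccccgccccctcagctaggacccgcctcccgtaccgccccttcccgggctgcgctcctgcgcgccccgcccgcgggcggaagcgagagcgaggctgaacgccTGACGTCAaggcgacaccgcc
Rgs2: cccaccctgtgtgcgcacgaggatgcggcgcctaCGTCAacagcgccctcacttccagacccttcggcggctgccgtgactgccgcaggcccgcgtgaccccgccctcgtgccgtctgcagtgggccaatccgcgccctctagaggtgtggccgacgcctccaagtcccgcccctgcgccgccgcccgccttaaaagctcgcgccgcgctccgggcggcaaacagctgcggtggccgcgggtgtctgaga
A match is a description of the letters only. The palindrome began 181 bases before the start in Ppargc1a and 21 before it in Rap1b, and the core in Rgs2 began 216 before it. None of these 3 genes passed the threshold between L629F and WT cells, at −0.09, 0.09 and −0.28 log2.

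Within each salt, no member passed the receptor comparison in the main fit, which has no term for replicate number. With iodide 49 of all genes passed (0.488%), and without iodide 49 passed (0.488%). The smallest adjusted p among members was 0.0878 with iodide (Gnai2) and 0.233 without (Rapgef3). At an unadjusted p under 0.05 there were 3 members with iodide (9.68%, against 12.1% of all genes) and 4 without (12.9%, against 13.6%), shares near those of all genes. The sign was the same under both salts for 21 of 31 members (67.7%), close to the 64.8% of all genes. Across the 31 members the differences under the 2 salts correlated at 0.34 (Pearson) and 0.45 (Spearman), against 0.45 (Pearson) over all genes. The salts share no array, but each axis rests on 4 arrays and all share the 2 lines. None of the 10045 genes passed for the interaction (limma, 418 or 4.16% with an unadjusted p under 0.05, of which 0 were members). Akap12 had the largest interaction among members, −1.24 log2 with an unadjusted p of 0.0943, and its signal was 18.9 and 119.7 on the 2 L629F iodide arrays.

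**Figure D4:**
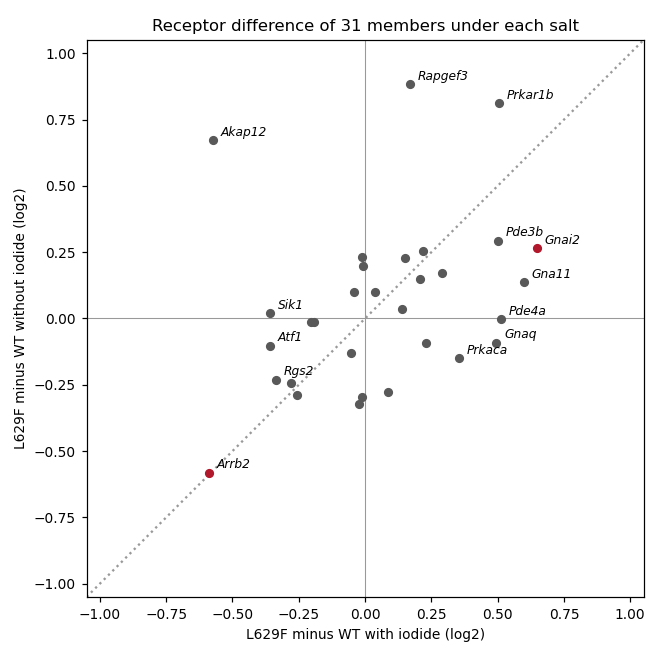
Log2 difference of L629F minus WT cells with iodide (horizontal axis) against the same difference without iodide (vertical axis) for the 31 tested members, with the line of equality dotted. Arrb2 (−0.59 and −0.58) lies on the line, Gnai2 (0.65 and 0.26) and Rapgef3 (0.17 and 0.88) lie off it on opposite sides, and Akap12 (−0.57 and 0.67) has opposite signs.

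Averaged over both lines, no member differed between iodide and chloride at the threshold in the main fit, where 1.6% of all genes did. The main fit has no term for replicate number. At an unadjusted p under 0.05 there were 8 members (25.8%, against 15.2% of all genes), and 28 of 31 had a 95% interval within a 2-fold change. Iodide in excess is known to damp the thyroid cell's response to TSH, so values are given for the members nearest to the threshold. Prkar2a, a PKA regulatory subunit, measured 3722 and 3775 in L629F cells and 3036 and 3349 in WT cells with iodide, against 2413 and 2979 in L629F cells and 2846 and 2879 in WT cells with chloride. In each line both iodide arrays lay above both chloride arrays, and the difference was 0.32 log2 (SE 0.10, interval 0.10 to 0.53, adjusted p = 0.139). Pde4d, whose signals are given above, had the same arrangement, with 0.33 (SE 0.11, adjusted p = 0.148), as had Pde8a, with 0.30 (adjusted p = 0.236).

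Gnaq (−0.78, interval −1.42 to −0.14, adjusted p = 0.2195), Rapgef3 (−0.58, adjusted p = 0.205) and Pde4b (−0.26, adjusted p = 0.327) had both iodide arrays below both chloride arrays in each line. The 3 members above make 9.68%, against 8.17% of all genes, these 3 make 9.68%, against 6.06%, and all 6 make 19.4%, against 14.2%. In WT cells the nearest arrays were almost level for Rapgef3 (146.2 with iodide, 146.3 with chloride). The same holds there for Pde4b (1945 with iodide, 1954 with chloride) and Pde8a (815 with iodide, 809 with chloride). Gnas differed by 0.30 (interval 0.04 to 0.56, adjusted p = 0.245) and was unstable: it was 0.45 (adjusted p = 0.0253) without WT iodide replicate 1, 0.15 (adjusted p = 0.481) without WT iodide replicate 2, 0.18 (0.636) as the mean of its probe sets and −0.02 (0.930) under quantile normalization. Signals of Gnas were 17509.7 and 19579.6 in L629F and 15539 and 23780.5 in WT cells with iodide, against 14163 and 15139 in L629F and 14428 and 17763 in WT cells with chloride. The GAPDH 3′ to 5′ ratio was 2.32 ± 0.716 on iodide and 1.62 ± 0.397 on chloride arrays (SD, n = 4 each; exact permutation p = 0.171). The beta-actin ratio was 6.31 ± 2.25 on iodide and 5.27 ± 2.36 on chloride arrays (exact permutation p = 0.543). The part of either ratio in these differences was not tested.

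Ppargc1a differed by −0.45 (interval −0.77 to −0.13, adjusted p = 0.150, probe set 1395518_at), and all of its 3 probe sets had a negative iodide difference. In the fit of every kept probe set, 1 of 52 probe sets of members passed, against 0.854% of all, and this was Ppargc1a 1370089_at, again singled out after its values were seen. It measured 241 and 206 in L629F cells and 138 and 167 in WT cells with iodide, against 309.9 and 324 in L629F cells and 390.4 and 345 in WT cells with chloride. Iodide arrays lay below chloride arrays in each line (−0.78 log2, SE 0.16, adjusted p = 0.0490), and the call was lost whichever array was left out (adjusted p 0.0726 to 0.270 in 8 fits, differences from −0.83 to −0.72).

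**Figure D5:**
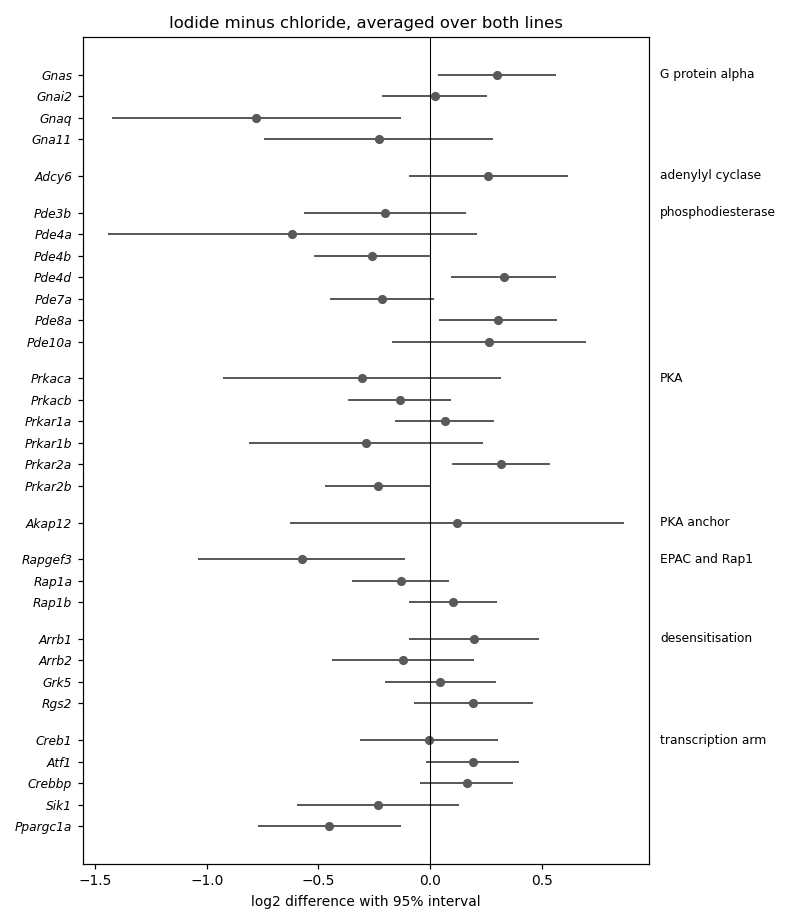
Log2 difference of iodide minus chloride averaged over both lines (horizontal axis) for the 31 tested members, grouped by role, with 95% intervals from limma. No member passed the threshold in this fit, the lowest value is that of Gnaq (−0.78) and the highest that of Pde4d (0.33).

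Genes of the same pathway that were not among the 38 were listed in 7 groups, also with earlier results of these data known. Of 126 listed genes 70 were tested, and for the receptor averaged over salts 4 were higher and 1 lower, where 2.07% of all genes were higher and 1.1% lower. No gene passed for the receptor average among 12 tested G protein subunits (median 0.10 log2), 12 PKA inhibitors and anchors (−0.11), 11 genes of the CREB family and its coactivators (−0.03) and 7 regulators of Rap (−0.16). Of 3 tested further cyclases and cAMP phosphodiesterases (median 0.48), Pde2a was higher. Pde2a, a phosphodiesterase that cGMP activates, measured 417 and 364 in L629F cells with iodide and 419 and 475 with chloride, against 251 and 279 in WT cells with iodide and 93.2 and 257 with chloride. All L629F arrays stood above all WT arrays (0.91 log2, SE 0.22, adjusted p = 0.0454), and the call held in 1 of 8 fits that left out an array.

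Of 9 further receptor kinases and RGS proteins (median 0.15), Rgs10 was higher. Rgs10, which speeds the shut-off of inhibitory alpha subunits, measured 448 and 525 in L629F cells with iodide and 408 and 447 with chloride, against 243 and 301 in WT cells with iodide and 273 and 236 with chloride. The lines did not overlap (0.72 log2, SE 0.15, adjusted p = 0.0234), and 2 of 8 fits kept the call. Of 16 tested genes known to be induced by cAMP in some tissues (median −0.03), 2 were higher and 1 lower on the receptor average. Egr1 (0.88, adjusted p = 0.0174) and Ier2 (0.58, adjusted p = 0.0433), both immediate early genes, were higher, with the call kept in 3 and 1 of 8 fits. Areg, a growth factor of the EGF family, was lower (−0.70, adjusted p = 0.00649) in all 8 fits.

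Within each salt, Areg (−1.01, adjusted p = 0.0198) and Junb, an AP-1 subunit (−1.79, adjusted p = 0.0409), were lower in L629F cells with iodide, where 3 and 1 of 8 fits kept the calls. Junb signals there were 40.03 and 35.6 in L629F against 238 and 198 in WT cells. The L629F signals lay below the 25th percentile of their arrays (43.2 and 40.9), so the size of the difference depends on the pseudocount, and it was −1.20 (adjusted p = 0.0452) with a pseudocount of 100. Without iodide, Egr1 was higher (1.31, adjusted p = 0.0395, kept in 2 of 8 fits). For iodide against chloride averaged over lines, Areg (0.96, adjusted p = 0.00112, kept in 8 of 8 fits) and Nr4a3, a nuclear receptor (0.91, adjusted p = 0.0272, kept in 2 of 8), were higher. As the mean of its probe sets, Nr4a3 differed by 0.61 (limma adjusted p = 0.138), and without the dim filter its adjusted p was 0.0873. None of the 70 was lower. Of all 10045 genes 52 were higher and 109 lower, and nothing about the lists is read from these counts.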

How the data were processed

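Total RNA of 8 FRTL-5 samples was labelled with biotin and hybridised to rat arrays of Affymetrix, which have a single colour, as the protocols state. Each probe set has 1 linear intensity per array as deposited, and per the submitters' processing notes MAS5 was used. For MAS5, the scaling target, version and detection calls were not given in the sources used here. Mean signals without the lowest and highest 2% were 500.2 on every array, so arrays had been scaled before deposit. Low signals still differed between the lines, which bears most on dim probe sets.

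Of 31099 probe sets, 20832 had 1 symbol in the platform annotation, 436 several and 9831 none, and 20764 were found in the table of GRCr8 genes. No gene was named from a probe set with several symbols. Left out were 57 controls and, by mean log2 signal, the dimmest 40% (a signal of 69.9 at the limit), which kept 18625, of which 4703 lacked a single symbol. The brightest probe set stood for each of 10045 genes, of which 2835 had several. The log2 transform added a pseudocount of 35.3, which is the 25th percentile over all signals, with no further centring.

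The model (limma 3.58.1 under R 4.3.3, with lmFit and trended eBayes) had a mean per group for 4 groups and 4 residual degrees of freedom (prior 9.43). Comparisons, 5 in all, were L629F minus WT with iodide, without it and averaged, iodide minus chloride averaged, and the interaction. Tests were two-sided, adjusted over all genes at 0.05, with 95% intervals, and the fit was tested on simulated data. The number of arrays limits the precision. The R package data.table (version 1.17.8) handled tables, and Python 3.11.15 with pandas 2.3.3 and matplotlib 3.10.9 searched promoters and drew figures.

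The members, gene lists and marker lists were chosen with earlier results of these data known. Values on each array are given for members past the threshold in the receptor average, filled to 12 by smallest p, and other members nearest to the threshold under iodide; from the 7 other pathway lists every gene past the threshold was named. Adcy6, Gnas, Prkar2a, Crebbp and some probe sets were added after their values were seen. The alternatives changed the pseudocount (100), the dim filter, the scaling (centring on all probe sets, quantile), the choice of probe set, the variance trend and the replicate block, and left out each array in turn.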

Additional observations from a re-analysis of the deposited data

How the results depend on the processing

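Across the alternatives, with 2 arrays a group and signals near the filter for Gnaq and Akap12 as limits, Gnai2 stayed higher and Arrb2 lower in L629F than in WT cells in each of 15 settings (0.29 to 0.55 and −0.76 to −0.51 log2), but Gnai2 passed in 6 and Arrb2 in 5. Without a filter on dim probe sets 0 members passed the receptor average (adjusted p 0.0564 for Gnai2 and 0.0916 for Arrb2), and of all genes 14 passed with iodide, 14 without, 205 on average and 92 for iodide against chloride, with more genes in the adjustment. Without the intensity trend 0 members passed (0.110 and 0.0593), and 21, 10, 171 and 18 genes in the same order. All-probe centring gave 6 members, 89 genes without iodide and 1377 on average, and split the iodide calls 99 higher and 96 lower, against 34 and 123 under quantile normalization and 52 and 109 as reported. Averaging probe sets per gene gave 31 genes without iodide. Every probe set as a feature, chosen after seeing the data, gave 1 member for the receptor and 1 for iodide. The cause of these changes was not tested. Replicate numbers were shared between groups, but the labels do not say what a number stands for. Deviations of same-numbered arrays correlated at 0.0432 to 0.226 over the 6 pairs of groups, all positive but not over 0.1 in all. The main fit did not take the numbers as pairs, and a shared origin was not tested further. That fit ignores a pairing if same-numbered arrays share an origin. A replicate block gave 169 genes with iodide, 247 without, 804 on average and 521 for iodide, with 1 member with iodide (Gnai2, adjusted p = 0.0138) and 2 for iodide (Prkar2a, 0.0458, and Pde4d, 0.0484), and Gnai2 (0.00543) and Arrb2 (0.0232) on average. Leaving out each array gave 5 to 24 genes with iodide, 3 to 66 without, 97 to 331 on average, 38 to 262 for iodide and 0 for the interaction, with 0 to 1 members on average and 0 to 1 for iodide. Of the main results, the counts of members and genes past the threshold, 98 were rated the same under an alternative and 57 moved. Of single genes' other results, 2588 stayed, 161 moved by over 1 standard error, 84 lost and 17 gained a call, and 0 changed sign past the threshold.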
